A study of Rattus norvegicus with 6 samples.

Results

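The 9 genes described here encode proteins of blood clotting and innate defence that the liver secretes and that renal tubules can also make: the fibrinogen chain genes Fga, Fgb and Fgg, the complement genes C3, C4a and Cfb, and the plasma carrier genes Cp, Hp and Hpx. They were given as a list of rat genes made locally in injured kidney, and were found through the RefSeq accession of each array probe. All 9 genes matched, with 17 of the 61657 non-control probes, and all 9 were among the 11815 named genes tested. The study took renal cortex from 6 male rats of the Sprague-Dawley strain, 5 weeks old when purchased, and measured total RNA with 1-colour Cy3 arrays from Agilent. Corn oil alone was given to 3 of them for 4 weeks, and o-nitroanisole, a nitroaromatic compound, to the other 3 for the same time at 400 mg/kg/day. The arrays were labelled as biological replicates, and rats are called by group and replicate number below.

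Fibrinogen is a protein of paired alpha, beta and gamma chains, from Fga, Fgb and Fgg, that thrombin turns into the fibrin of a clot. In the acute phase response, interleukin-6 acting through STAT3 and C/EBP factors raises the transcription of these genes in hepatocytes. Injured tubular epithelium is known to switch on the fibrinogen genes and C3, while haptoglobin (Hp) and hemopexin (Hpx) bind the hemoglobin and heme that lysed red cells release, and ceruloplasmin (Cp) is a copper-carrying ferroxidase.

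The promoters of Fgg, Fgb, C3 and Hpx are printed because Fgg, Fgb and Hpx share an order over the 6 rats, as described below, and C3 does not. Each is the 250 bases before the gene's start in RefSeq, build GRCr8, read 5′ to 3′ on the gene's own strand. Fgg lies at chr2:170652833-170653082 (plus strand), Fgb at chr2:170700876-170701125 (minus strand), C3 at chr9:2201340-2201589 (minus strand) and Hpx at chr1:169352156-169352405 (minus strand). Capitals mark 3 motifs searched on both strands: CTGGGAA, the core of the interleukin-6 response element, TTGCNNAA, a C/EBP-like motif, and TTCNNNGAA, a STAT palindrome.
Fgg: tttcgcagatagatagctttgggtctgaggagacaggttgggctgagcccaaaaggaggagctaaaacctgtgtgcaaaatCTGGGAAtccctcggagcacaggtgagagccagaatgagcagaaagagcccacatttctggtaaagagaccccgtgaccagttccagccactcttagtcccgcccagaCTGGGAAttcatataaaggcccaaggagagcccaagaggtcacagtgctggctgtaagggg
Fgb: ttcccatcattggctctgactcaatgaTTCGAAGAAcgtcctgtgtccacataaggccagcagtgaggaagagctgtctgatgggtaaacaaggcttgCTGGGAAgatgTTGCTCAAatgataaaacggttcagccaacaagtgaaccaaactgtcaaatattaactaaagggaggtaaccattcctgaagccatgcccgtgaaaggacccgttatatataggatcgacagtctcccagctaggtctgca
C3: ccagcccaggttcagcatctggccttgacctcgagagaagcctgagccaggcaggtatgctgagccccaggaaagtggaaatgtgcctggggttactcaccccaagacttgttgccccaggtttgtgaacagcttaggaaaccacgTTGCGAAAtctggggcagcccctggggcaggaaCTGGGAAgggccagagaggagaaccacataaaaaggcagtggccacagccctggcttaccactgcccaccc
Hpx: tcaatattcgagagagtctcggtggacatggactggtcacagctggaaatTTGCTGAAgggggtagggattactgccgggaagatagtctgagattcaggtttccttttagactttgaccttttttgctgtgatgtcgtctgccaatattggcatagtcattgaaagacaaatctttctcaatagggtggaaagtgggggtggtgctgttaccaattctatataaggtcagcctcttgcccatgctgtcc

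Promoters of 7 of the 9 genes had an entry in the RefSeq table; Cfb and Hp are named only. CTGGGAA stood in 4 of these 7, those of C3, C4a, Fgb and Fgg, and in 9.56% of all 33469 promoters of the same length. In Fgg it occurred at 2 places, starting 169 and 61 bases before the gene's start. TTGCNNAA stood in 5 of 7 (C3, Cp, Fga, Fgb and Hpx) against 9.22% of all promoters, and TTCNNNGAA in 2 of 7 (Fga and Fgb) against 7.67%. The core of the interferon-stimulated response element, here paired GAAA blocks on either strand, stood in none of the 7 windows and in 3.41% of all promoters. A match describes letters in these windows and is not evidence of binding. In the Fgb promoter the CTGGGAA and TTGCNNAA matches lie close together, starting 152 and 141 bases before the start, without overlapping.

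Levels are given as log2 of the processed signal minus the log2 of that array's 75th percentile, so 0 is the 75th percentile of the array; differences are o-nitroanisole minus corn oil on this log2 scale, with the moderated standard error (SE) and 95% interval from limma. Probes differ in brightness for reasons other than abundance, so levels are compared between rats and not between genes. The 75th percentile lay between 905 and 1041 intensity units over the 6 arrays, 66.4% to 71.5% of probes were well above background, and no probe was saturated. Markers of proximal tubule, the main cell of the cortex, were measured for 14 of 14 genes, the brightest being Miox at 9.01 to 9.30. Each treatment had a slide and a scan run of its own, so slide and treatment cannot be told apart in any comparison below. In bulk cortex, fewer cells of a type and less RNA per cell cannot be told apart either.

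No difference between treatments was resolved for any of the 9 genes by the test used, with 3 rats in each group. By limma with Benjamini-Hochberg adjustment over all 32428 features, 0 of the 9 passed an adjusted p of 0.05, as did 0% of all features, none of which had an adjusted p below 0.0711. Before adjustment, 0 of 9 had a p under 0.05, against 18.9% of all features. On the brightest probe of each gene, the 3 treated and 3 control rats did not separate for any of the 9, against 27.2% of all features. Dimmer probes of Cp did separate them, as described below. With eBayes trend and robust options, which called 522 features (1.61%), again 0 of 9 passed. The median difference of the 9 was -0.07, beside 0.03 over all features, and the differences ran from -0.75 for Cfb to 0.17 for Fgg. An exact permutation test of 3 against 3 rats cannot give a two-sided p under 0.1.

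**Figure D1:**
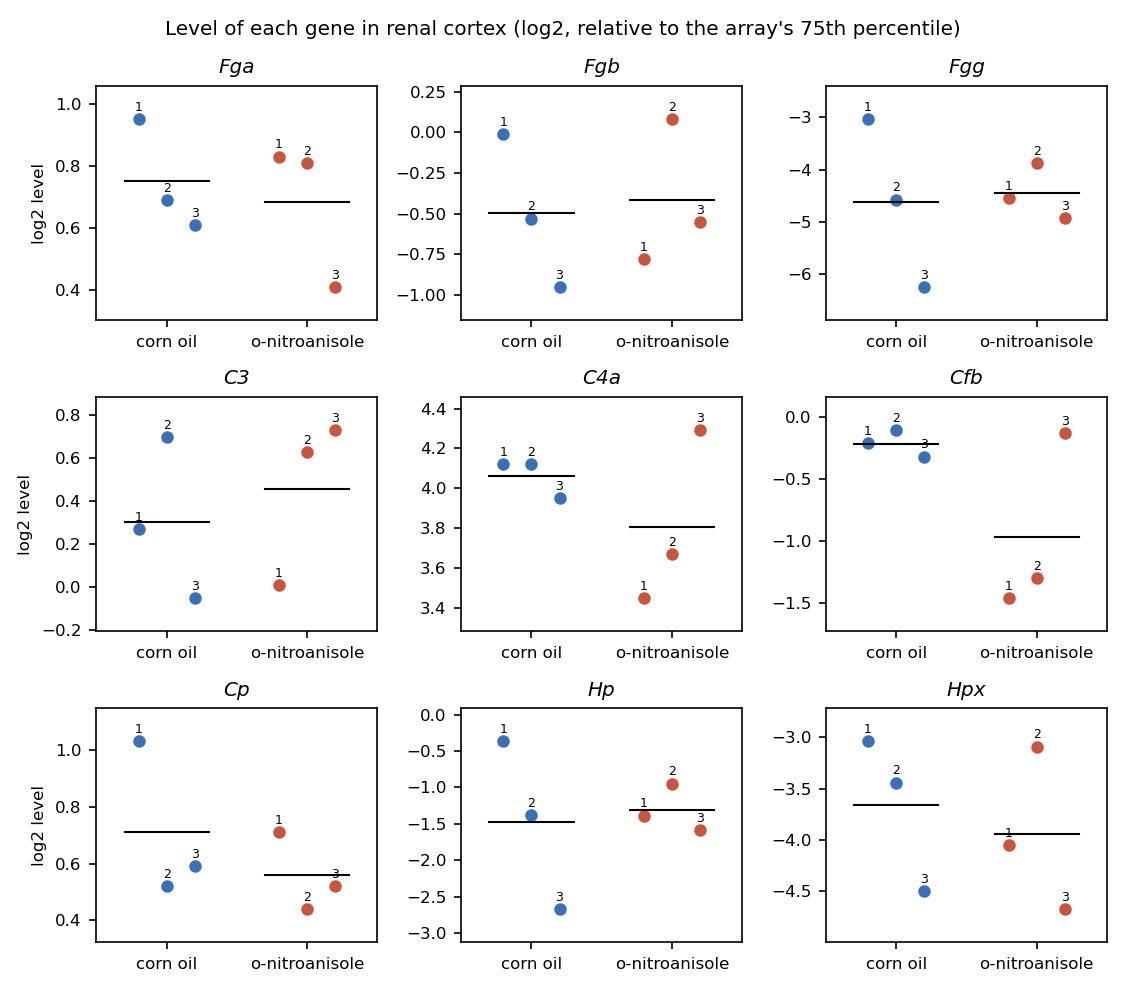
Log2 level relative to the array's 75th percentile (y axis, a separate scale for each gene) in each of the 6 rats, by treatment (x axis); points are rats numbered by replicate and bars are group means (n = 3). Each gene is shown by its brightest probe. On it the groups overlap for every gene, and C4a and Cfb are low in o-nitroanisole rats 1 and 2 only.

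The fibrinogen alpha chain gene Fga was at 0.95, 0.69 and 0.61 in corn oil rats 1 to 3 and at 0.83, 0.81 and 0.41 in o-nitroanisole rats 1 to 3. Its difference was -0.07 (SE 0.15, 95% interval -0.44 to 0.31, adjusted p = 0.840 by limma). The groups lay over each other, and the interval spans less than 1 log2 unit.

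Fgb, the beta chain gene, was at -0.01, -0.53 and -0.95 in the corn oil rats and at -0.78, 0.08 and -0.55 in the o-nitroanisole rats. Corn oil rat 1 and o-nitroanisole rat 2 were the high ones. The difference was 0.08 (SE 0.32, interval -0.70 to 0.86, adjusted p = 0.916), and a dimmer probe of Fgb gave 0.02.

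Fgg, the gamma chain gene, was dim. Its levels were -3.04, -4.57 and -6.24 in the corn oil rats and -4.54, -3.87 and -4.93 in the o-nitroanisole rats. The lowest value, that of corn oil rat 3, was not well above background, so it has only a bound and no fold is given among the corn oil rats. The difference between treatments was 0.17 (SE 0.82, interval -1.85 to 2.18, adjusted p = 0.929), and the other probe gave 0.11. Fgg entered the test through its o-nitroanisole arrays, all 3 of which were above background. With normexp background correction, whose offset of 50 intensity units draws dim signals together, the difference was -0.065 (SE 0.29).

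The 3 fibrinogen genes had differences of both signs, with a mean of 0.06. Fga, Fgb and Fgg neighbour each other on chromosome 2 and encode chains of 1 protein. The residual standard deviation between rats of a group was 0.210 for Fga and 0.459 for Fgb, against a median of 0.134 over all features. For Fgg it was 1.20, a value that includes the corn oil array not well above background. With normexp the SEs of the differences were 0.13 for Fga, 0.27 for Fgb and 0.29 for Fgg, so the wider spread of Fgg than of Fgb depends on how background was treated.

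C3, the central complement component, was at 0.27, 0.70 and -0.05 in the corn oil rats and at 0.01, 0.63 and 0.73 in the o-nitroanisole rats. Each group held high and low rats. The difference was 0.15 (SE 0.27, interval -0.51 to 0.81, adjusted p = 0.791).

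C4a encodes a C4 protein of the classical and lectin routes and has a close copy, C4b, for which no probe was matched, so the probe may read both. It was at 4.12, 4.12 and 3.95 in the corn oil rats and at 3.45, 3.67 and 4.29 in the o-nitroanisole rats. O-nitroanisole rats 1 and 2 lay below every corn oil rat, and rat 3 lay above all of them. The difference was -0.26 (SE 0.22, interval -0.80 to 0.29, adjusted p = 0.571). On a dimmer probe, at 0.32, 0.42 and 0.11 against -0.40, -0.39 and 0.29, rats 1 and 2 again lay below every corn oil rat, while rat 3 lay within their range; it gave a difference of -0.45 (unadjusted p = 0.0779, adjusted p = 0.320).

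Cfb encodes factor B, the protease of the alternative pathway convertase. Its levels were -0.21, -0.11 and -0.32 in the corn oil rats and -1.46, -1.30 and -0.13 in the o-nitroanisole rats. O-nitroanisole rats 1 and 2 were low, as for C4a. Rat 3 lay within the range of the corn oil rats, whereas on the brightest C4a probe it lay above them. The difference of -0.75 was the largest of the 9 genes (SE 0.36, interval -1.63 to 0.13, unadjusted p = 0.0822, adjusted p = 0.329). The other probe of Cfb gave -0.87 (unadjusted p = 0.0596), with -3.42, -3.35 and -2.07 in the o-nitroanisole rats against -2.05, -1.98 and -2.19 in the corn oil rats.

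The result for Cfb and C4a turned on 1 array. Without o-nitroanisole rat 3, the difference of Cfb was -1.17 (SE 0.10, unadjusted p = 1.16e-04, adjusted p = 0.176 by limma) and that of C4a was -0.50 (SE 0.11, unadjusted p = 0.00587, adjusted p = 0.203). Then 2 of the 9 genes had an unadjusted p under 0.05, against 15.8% of all features. With trend and robust options and without the same array, Cfb alone of the 9 passed, with an adjusted p of 0.0487, as did 0.074% of all features, and the same pair had an unadjusted p under 0.05, against 17.2%. No label sets this rat apart, and its array had 69.9% of probes above background, within the range of the others. Leaving it out removes the treated rat that differed from rats 1 and 2 for both genes, so smaller SEs follow from the removal. The fit with trend and robust options without this array was added after the data were seen.

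Ceruloplasmin gave an answer that depended on the probe. The brightest of its 4 probes was at 1.03, 0.52 and 0.59 in the corn oil rats and at 0.71, 0.44 and 0.52 in the o-nitroanisole rats, a difference of -0.15 (SE 0.16, interval -0.54 to 0.23, adjusted p = 0.632). Its groups overlapped.

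The other 3 Cp probes were each lower in every o-nitroanisole rat than in any corn oil rat. The first of them was at -1.65, -1.75 and -1.51 against -1.98, -2.19 and -2.01, a difference of -0.42 (SE 0.09, unadjusted p = 0.00470, adjusted p = 0.130 over 41096 probes). The remaining pair gave -0.42 (unadjusted p = 0.0239, adjusted p = 0.201) and -0.45 (unadjusted p = 0.0341, adjusted p = 0.227). Of the 17 probes, these 3 were the ones with an unadjusted p under 0.05 and with groups that did not overlap, against 19% and 27.2% of all probes. With the mean of its probes in place of the brightest, Cp was at a difference of -0.36 (unadjusted p = 0.0193, adjusted p = 0.195), and 1 of 9 genes had an unadjusted p under 0.05, against 18.3% of all features. Where each probe lies in the transcript was not examined.

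**Figure D2:**
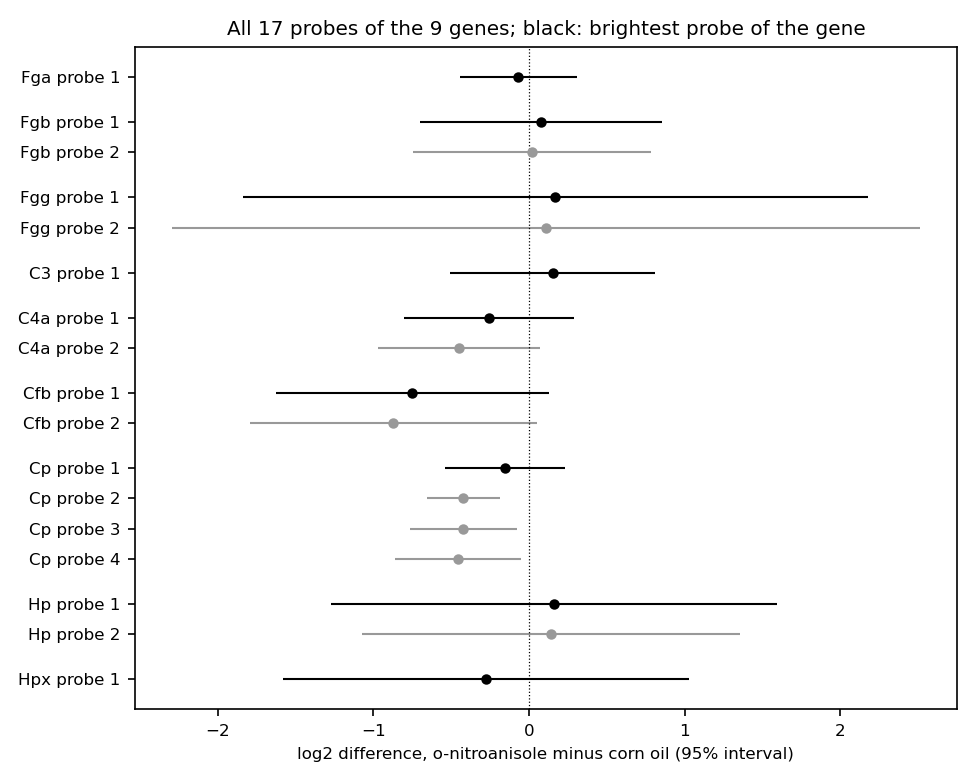
Log2 difference, o-nitroanisole minus corn oil (x axis), with its 95% interval for each of the 17 probes (y axis), from limma on 3 against 3 rats; black marks the brightest probe of each gene, grey the others. The intervals of Cp probes 2 to 4 lie below 0 while that of the brightest Cp probe crosses it, and all other intervals cross 0.

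Hp, haptoglobin, was at -0.37, -1.38 and -2.67 in the corn oil rats and at -1.39, -0.95 and -1.59 in the o-nitroanisole rats. The 3 o-nitroanisole rats lay inside the range of the corn oil rats, which spanned 4.96-fold. The difference was 0.16 (SE 0.58, interval -1.27 to 1.60, adjusted p = 0.905), and a dimmer probe gave 0.14.

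Hpx, hemopexin, was at -3.04, -3.44 and -4.50 in the corn oil rats and at -4.05, -3.09 and -4.67 in the o-nitroanisole rats. Corn oil rat 1 and o-nitroanisole rat 2 were again the highest. The difference was -0.28 (SE 0.53, interval -1.58 to 1.03, adjusted p = 0.810).

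The spread between rats of a group is given here without background modelling, and for dim genes it depends on that choice. The residual standard deviation within groups was 0.851 for Hp, a value that 2.08% of all features reached, 0.774 for Hpx (2.54%) and 0.519 for Cfb (5.75%), and the 1.20 of Fgg was reached by 0.928%. It was 0.459 for Fgb (7.47%), 0.384 for C3 (10.6%), 0.315 for C4a (15.3%), 0.218 for Cp (28.1%) and 0.210 for Fga (29.6%). For Fgg, Hp and Hpx the intervals on this scale include changes of over 1 log2 unit in both directions. With normexp the SE fell from 0.82 to 0.29 for Fgg and from 0.53 to 0.26 for Hpx (difference -0.054), and was 0.46 for Hp, so the width of the intervals of Fgg and Hpx rests on the background setting. The sign of the difference turned for 7 of the 9, all but C4a and Cfb, when 1 array was left out: without corn oil rat 3, Fgg was at -0.64 and Hp at -0.44. These fits used the brightest probe of each gene, and Cp turned only to 0.0043, without corn oil rat 1. Its other probes were not refitted in this way.

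Fgb, Fgg, Hp and Hpx ordered the rats alike: corn oil rat 1 was above rat 2 and rat 2 above rat 3, and o-nitroanisole rat 2 was the highest of its group. For Fgg the corn oil rat 3 value was the one not well above background. This order was noticed in the values and is given as a description. It was shared by 4 of the 9 genes and by 1833 of 32412 features without missing values (5.66%), and 170 features (0.524%) shared it with a range of at least 1 log2 unit over the corn oil rats.

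Hepatocyte markers were among the genes with that order. Of the 12 tested, 5 had it: Alb, Ttr, Apoa1, Serpina1 and Ahsg. Ahsg had it by small gaps, at -0.69, -0.91 and -0.97 in the corn oil rats and -1.23, -1.16 and -1.28 in the o-nitroanisole rats. Unlike Fgb, Fgg, Hp and Hpx, it was lower in every o-nitroanisole rat than in any corn oil rat. Albumin (Alb) was at 1.90, 0.42 and -1.34 in the corn oil rats and at 0.05, 0.89 and -0.48 in the o-nitroanisole rats. Transthyretin (Ttr), a thyroid hormone carrier, was at 1.26, 0.03 and -1.91 against -0.42, 0.71 and -0.84.

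Apoa1, the main protein of high density lipoprotein, was at -3.00, -4.01 and -5.01 against -4.10, -1.94 and -3.84. The other 7 tested hepatocyte markers did not have the order. Kng1 and Fetub went the other way, with corn oil rat 3 highest and o-nitroanisole rat 2 lowest within its group. Kng1 was at -2.94, -3.51 and 0.11 against -0.82, -2.01 and -0.67, and Fetub at -1.08, -1.14 and -0.28 against -0.12, -0.72 and -0.07. The brightest of the whole list were Cyp2e1, at 5.39 to 6.11, and F2, prothrombin, at 2.36 to 3.90. The level of the list was also summed on the linear scale, in units of each array's 75th percentile. The sum was 63.6 to 76.1 in the corn oil rats and 59.6 to 89.4 in the o-nitroanisole rats. Most of it was Cyp2e1, so the sum does not show how the dimmer markers moved. Alb spanned 3.24 log2 units over the corn oil rats. Of the defining hepatocyte enzymes, Tat was above background on 0 of 6 arrays, Cps1 on 1 and Tdo2 on 2. The part of liver-type transcripts in the spread of Fgb, Fgg, Hp and Hpx was not tested.

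**Figure D3:**
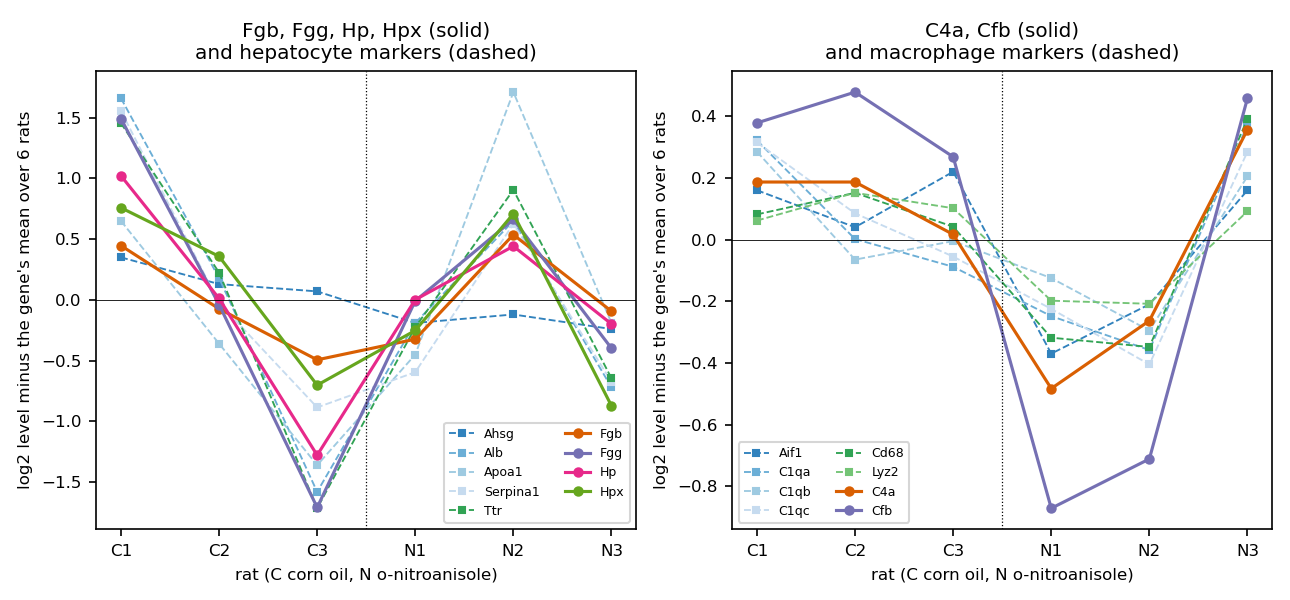
Log2 level minus the gene's mean over 6 rats (y axis) in corn oil rats C1 to C3 and o-nitroanisole rats N1 to N3 (x axis); solid lines are genes of the set and dashed lines are markers, all chosen for their order, and lines only join a gene's points. On the left, Fgb, Fgg, Hp and Hpx fall from C1 to C3 and peak at N2 among treated rats, with hepatocyte markers; on the right, C4a and Cfb are low in N1 and N2 alone, with macrophage markers.

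C4a and Cfb shared the second order, in which o-nitroanisole rats 1 and 2 lay below every corn oil rat and rat 3 did not. It held for 2 of the 9 genes and for 1662 of 32412 features (5.13%), and was also noticed in the values. Among macrophage and monocyte markers, 6 of 11 tested had it: Aif1, C1qa, C1qb, C1qc, Cd68 and Lyz2. C1qa, C1qb and C1qc encode chains of 1 protein. Of the markers without the order, Mrc1 was lowest in o-nitroanisole rat 3, at -1.70, -2.31 and -1.45 against -2.09, -2.44 and -3.49. Cd14 was higher in every o-nitroanisole rat, at -0.60, -0.72 and -0.83 against -0.26, -0.22 and -0.14. C1qc, a chain of the first complement component, was at 0.61, 0.38 and 0.24 in the corn oil rats and at 0.07, -0.11 and 0.58 in the o-nitroanisole rats, a smaller gap than that of Cfb.

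The brightest macrophage markers were Lyz2, at 6.09, 6.18 and 6.13 against 5.83, 5.82 and 6.12, and Cd74, which did not have the order and was at 4.44, 4.59 and 4.71 against 5.04, 5.25 and 4.94. The summed linear level of the macrophage list was 119.8 to 123.0 in the corn oil rats and 111.7 to 130.3 in the o-nitroanisole rats, and Cd163, Ccr2 and Mpeg1 did not pass the filter. The part of macrophage transcripts in the values of C4a and Cfb was not tested.

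With a gap of at least 0.7 log2 units between the means of the corn oil rats and o-nitroanisole rats 1 and 2, 171 features (0.528%) had this order, 67 of them named. Interferon response genes chosen after their values were seen were among them. How many interferon response genes were tested, and how many lacked the order, was not counted. The examples therefore do not describe that response as a whole. Irf7, a transcription factor of that response, was at 1.23, 1.52 and 0.88 in the corn oil rats and at 0.01, -0.14 and 1.43 in the o-nitroanisole rats. Usp18, a protease that removes Isg15 from proteins, was at -1.89, -1.85 and -2.76 against -3.44, -3.48 and -1.91. The part of the interferon response in the values of C4a and Cfb was not tested. The promoter search above cannot decide it. The interferon-stimulated response element core stood in only 3.41% of all promoters, and Cfb had no promoter entry.

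Genes around the 9 members were read as 7 lists: coagulation, complement activation, complement regulators, other acute phase proteins, interleukin-6 signalling, interleukin-1 and TNF signalling, and heme and iron partners. In none of the 7 did a gene pass an adjusted p of 0.05 by limma. Counts below are therefore at an unadjusted p under 0.05, to be read against 11.8% of all features higher and 7.12% lower.

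In the coagulation and fibrinolysis list, 2 of 22 tested genes were higher and 4 lower, with a median difference of 0.08. Plau, urokinase, which activates plasminogen, was at 3.53, 3.51 and 3.75 in the corn oil rats and at 2.95, 2.94 and 2.95 in the o-nitroanisole rats, a difference of -0.65 (SE 0.08, adjusted p = 0.0820). Pros1, protein S, an anticoagulant cofactor, differed by -0.59 (adjusted p = 0.122). Serpinf2, the plasmin inhibitor, differed by -0.40 (adjusted p = 0.189). Proc, protein C, was also lower (-0.54, adjusted p = 0.214). The higher genes were Fgl2, a fibrinogen-like prothrombinase (0.50), and Serpinc1, antithrombin (0.20). The largest difference, 1.16 for the kininogen gene Kng2, did not pass at an unadjusted p (SE 1.03).

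In the complement activation list, 2 of 14 were higher and 1 lower, with a median of -0.03. The lectin-pathway protease gene Masp2 (0.52, adjusted p = 0.255) and the mannose-binding lectin gene Mbl1 (0.41, adjusted p = 0.252) were the higher ones. Ficolin B, Fcnb, was lower (-0.61, adjusted p = 0.183). Among regulators and receptors, 1 of 14 was higher and 3 lower, with a median of -0.07. Cr1l, a membrane regulator of C3 convertases, differed by -0.18 (adjusted p = 0.177) and Itgb2, the beta chain of complement receptor 3, by -0.34 (adjusted p = 0.209). Serping1, the C1 inhibitor, differed by -0.27 (adjusted p = 0.264). Cd55, decay-accelerating factor, differed by 0.49 (adjusted p = 0.236) on its brightest probe and by -0.60 on the other. The largest difference was that of clusterin, Clu, at -0.67 (adjusted p = 0.375).

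Of 27 other acute phase genes tested, 3 were higher and 3 lower, with a median of -0.09. Agt, angiotensinogen, was at 3.47, 2.31 and 3.19 in the corn oil rats and at 1.92, 1.33 and 1.34 in the o-nitroanisole rats, a difference of -1.46 (SE 0.34, adjusted p = 0.136) and the largest of the list. Lcn2, an iron-siderophore carrier, was lower (-0.70, adjusted p = 0.116), and Cd14, a receptor for bacterial lipopolysaccharide, was higher (0.51, adjusted p = 0.0979). Rbp4, the retinol carrier (1.04), and Ambp, the precursor of bikunin and a heme-binding protein (0.36), were the other higher genes, and fetuin-A, Ahsg, was lower (-0.37). The order of Fgb, Fgg, Hp and Hpx was found in 9 of these 27 genes, among them Itih3, Itih4, Saa4 and Serpina3c, which are not on the hepatocyte list. Serpina1, the elastase inhibitor, is on both lists and was at -2.21, -3.79 and -4.65 against -4.36, -3.14 and -4.44.

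In the interleukin-6, STAT3 and C/EBP list, 2 of 26 were higher and 3 lower, with a median of 0.01. Stat3 was at 1.82, 1.94 and 1.83 in the corn oil rats and at 2.06, 2.23 and 2.28 in the o-nitroanisole rats, a difference of 0.33 (SE 0.08, adjusted p = 0.146). Its kinase gene Jak2 differed by 0.17 (adjusted p = 0.185). The largest difference was that of Lif, a cytokine of the same family, at -0.85 (adjusted p = 0.448). Socs2 (-0.72) and the receptor gene Lifr (-0.31) were among the lower genes. Il6 itself did not pass the filter, so its level was not tested. In the interleukin-1 and TNF list, 1 of 20 was higher and none lower, with a median of 0.09; the receptor gene Tnfrsf1a differed by 0.34 (adjusted p = 0.145) and Birc3 by 0.35 (adjusted p = 0.291).

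In the list of heme and iron partners, 5 of 24 were higher and 1 lower, with a median of -0.05. Hmox1, heme oxygenase, was at -1.72, -1.27 and -1.52 in the corn oil rats and at 0.09, -0.55 and -0.60 in the o-nitroanisole rats, a difference of 1.15 (SE 0.22, adjusted p = 0.116). Steap3, an iron reductase, differed by -0.31 (adjusted p = 0.123), and Aco1, an iron-sensing aconitase, by 0.34 (adjusted p = 0.166). Hmox2 (0.22), Blvrb (0.28) and the copper chaperone Atox1 (0.17) were the other higher genes. Red blood cell markers moved with the treatment groups: 7 of 9 tested were higher and none lower at an unadjusted p under 0.05. Their summed linear level was 434 to 503 in the corn oil rats and 673 to 823 in the o-nitroanisole rats.

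Hba-a1 and Hbb, the brightest red cell markers, differed by 0.69 (adjusted p = 0.0961) and 0.67 (adjusted p = 0.0961). Hp and Hpx, whose proteins clear the contents of lysed red cells, differed by 0.16 and -0.28 beside these values, with neither past the test. Among neutrophil markers, 3 of 6 tested were higher, with a median of 0.31: S100a8 by 1.76, S100a9 by 1.15 and Camp by 0.45. Csf3r (0.17), Retnlg (0.08) and Mmp9 (-0.69) had no unadjusted p under 0.05. Elane, Ngp, Cxcr2, Mmp8 and Itgam did not pass the filter. Of 12 tubular injury markers tested, 2 were higher, Krt18 by 1.23 (adjusted p = 0.0711) and Krt8 by 0.77 (adjusted p = 0.0820). In that list 2 were lower, Lcn2 by the value above and Havcr1, kidney injury molecule 1, at a difference of -0.46 (adjusted p = 0.227). The list's median was -0.09, and the brightest were Krt7, at 3.93 to 4.18, and Clu. The part of blood cell transcripts in any value of the 9 genes was not tested.

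**Figure D4:**
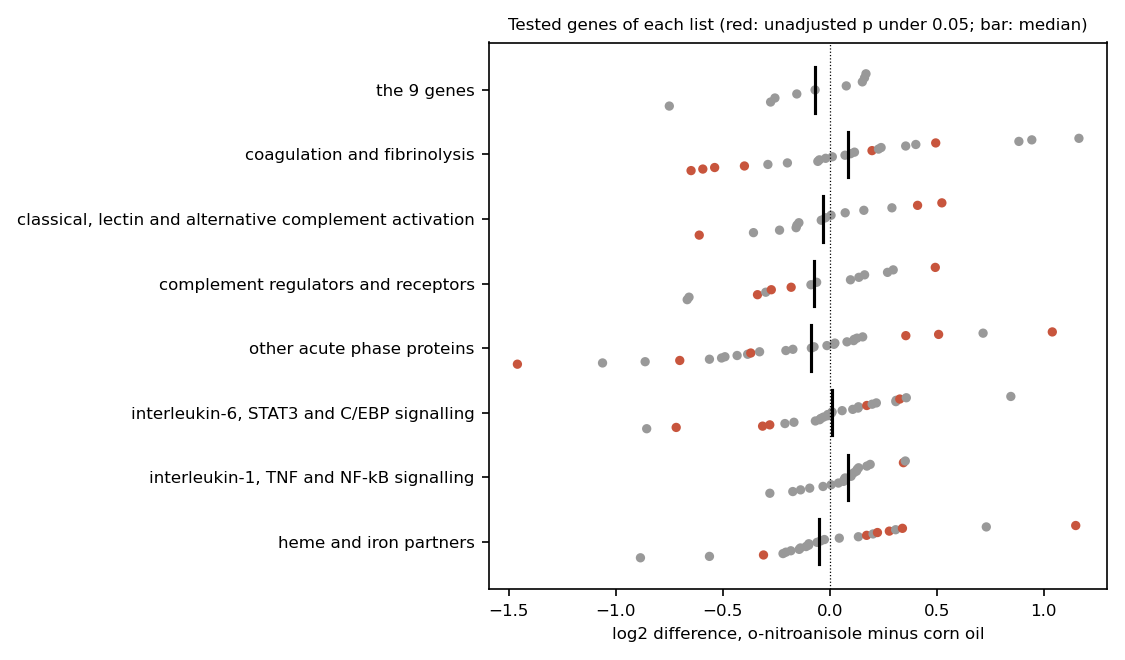
Log2 difference, o-nitroanisole minus corn oil (x axis), of each tested gene of the 9-gene set and the 7 lists around it (y axis); black bars are medians and red points have an unadjusted p under 0.05 by limma on 3 against 3 rats. None of the points of the 9 genes is red, and the list medians lie between -0.09 and 0.09.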

How the data were processed

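Total RNA of 6 renal cortex samples was hybridised to 1-colour arrays. Per the file headers, the deposited scanner files hold spot intensities, and background was subtracted from the intensity used here, called the processed signal; the submitters' processing notes name Agilent Feature Extraction 10.7, and flags of other kinds mark probes well above background, saturated spots and outliers. The deposited value table holds a ratio, each processed signal over its array's 75th percentile. Its corn oil columns 1, 2 and 3 held the values of the scanner files of replicates 3, 1 and 2 (100% of probes within 1%), so which number belongs to which corn oil rat is unsettled, although the group is not. Corn oil numbers here are those of the scanner files.

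The analysis used log2 processed signal minus log2 of the 75th percentile of non-control probes on that array, without outlier spots and the 84 spike-in probes. RefSeq accessions named the probes through a table of build GRCr8 (27460 of 33356 accession-bearing probes matched), while the headers name array build rn4. Testing required a probe to be well above background on all arrays of a group, which all 9 genes met, and a gene was its brightest probe. The comparison was made in R 4.3.3 by limma 3.58.1 (lmFit, then eBayes with defaults), with Benjamini-Hochberg adjustment over 32428 features. Plots came from matplotlib 3.10.9 and tables from pandas 2.3.3 and numpy 2.4.6 in Python 3.11.15. The fit was checked on simulated data in which 200 of 32412 features were changed. At an adjusted p of 0.05, the default fit recovered 0.0% of features changed by 0.5 log2 units. It recovered 61.5% of those changed by 1 and 89.5% of those changed by 2. Real changes of the size of most differences given here could thus go uncalled. The recovery rates are averages over features, and the median residual standard deviation over all features was 0.134. All 9 genes had larger ones, from 0.210 for Fga to 1.20 for Fgg, so the rates do not apply to them. With 3 arrays in each group, their number limits the precision.

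All 9 genes were named whatever they showed; of each list around them, genes past the threshold, otherwise up to 3 with the smallest unadjusted p under 0.05 and the one with the largest difference; of each of the 13 marker lists, counts and up to 2 of the brightest, given here for those that bear on the 9 genes. Genes named for their order over rats, and further genes of a list named to complete a count, were chosen after their values were seen. In the interleukin-6 list, 1 of the genes to be named is not reported here. The genes and lists were chosen with earlier results of these data known. Same-numbered rats of the 2 groups share only a number: their deviations correlated at 0.09, 0.06 and 0.03. Alternatives were another background correction (normexp, offset 50, on the median spot signal), scaling, filters, moderation, weights, probe averaging, the value table, a replicate block and leaving out each array. Trend and robust options without each array, and probes tested singly, were added after seeing the data. No fit with the slide as a block was possible.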

Additional observations from a re-analysis of the deposited data

How the results depend on the processing

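The number of features past an adjusted p of 0.05, 0 in the default limma fit (6142 at an unadjusted p under 0.05), was 118 with normexp, 522 with trend and robust options, 0 to 8 when leaving out each array (8 without corn oil replicate 3, 1 without corn oil replicate 1) and 0 to 67 with both changes (6, 58 and 67 without corn oil replicates 1, 2 and 3, and 25, 0 and 24 without o-nitroanisole replicates 1, 2 and 3). Of the 9 genes, 0 passed in each of these except 1, Cfb, with trend and robust options without o-nitroanisole replicate 3; at an unadjusted p under 0.05 the count was 1 (Cp) with the mean of a gene's probes, 0 to 2 when leaving out each array (2, C4a and Cfb, without o-nitroanisole replicate 3, also with trend and robust options), and 0 in the other settings.

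Fgg turned to -0.065 with normexp and Hpx to 0.10 with array weights; the cause was not tested. Leaving out each array gave -0.14 to 0.069 for Fga, -0.17 to 0.32 for Fgb, -0.64 to 0.96 for Fgg, -0.027 to 0.38 for C3, -0.50 to -0.081 for C4a, -1.17 to -0.50 for Cfb, -0.25 to 0.0043 for Cp, -0.44 to 0.72 for Hp and -0.70 to 0.088 for Hpx. Without corn oil replicate 1 the signs of Fga (0.032), Cp (0.0043) and Hpx (0.033) turned. Without corn oil replicate 3 those of Fgb (-0.15), Fgg (-0.64), C3 (-0.027) and Hp (-0.44) turned, and without o-nitroanisole replicate 2 those of Fgb (-0.17), Fgg (-0.12) and Hp (-0.018). Without o-nitroanisole replicate 3, Fga (0.069) and Hpx (0.088) turned. The mean of the fibrinogen genes was -0.31 to 0.44 over these. C4a and Cfb kept their direction in every setting run.

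With the replicate number as a block (replicate block), 0 features passed and 0 of the 9 genes did, at an adjusted p or at an unadjusted p under 0.05; the mean of the fibrinogen genes was 0.06, and Cfb was at -0.75 (SE 0.35, adjusted p = 0.382).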

Other observations

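Cell type markers gave the following counts at an unadjusted p under 0.05 by limma, with no gene of these lists past an adjusted p of 0.05. The counts are to be read against 11.8% of all features higher and 7.12% lower, and several are near these shares. Collecting duct markers were higher for 6 of 9 tested genes and lower for none, with a median log2 difference of 0.30. Among these is Slc4a1, the anion exchanger that red cells share with intercalated cells, which is also on the red blood cell list. Proximal tubule markers were higher for 4 of 14 and lower for 2, with a median of 0.11, and loop of Henle and distal tubule markers lower for 2 of 6 (Umod, uromodulin, by -0.25, and Cldn16, a claudin of the thick ascending limb, by -0.41), with a median of -0.03.

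Fibroblast and mesangium markers were lower for 2 of 8, the collagen genes Col1a2 (-0.50) and Col3a1 (-0.51), with a median of -0.19. Macrophage and monocyte markers were higher for 2 of 11, Cd14 (0.51) and Cd74 (0.50), with a median of -0.16. Hepatocyte markers were higher for 1 of 12, Apob (1.30), and lower for 2, Ahsg (-0.37) and Apoh (-0.98), with a median of 0.11. Platelet markers were lower for 1 of 6, Gp5 (-0.26), with a median of -0.07. No lymphocyte marker (9 tested, median 0.02) or endothelial marker (8 tested, median 0.06) had an unadjusted p under 0.05, and of 10 housekeeping genes 2 were higher, Hprt1 (0.43) and Gapdh (0.19), with a median of 0.06.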
